A study of Homo sapiens with 6 samples.

Results

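The genes described here encode the machinery of macroautophagy and the lysosome: 37 genes of the autophagy steps, 5 transcription factors and regulators of lysosomal gene expression, and 12 lysosomal genes. They were picked by symbol from these pathways and looked up by their Ensembl rows, and all 54 of them were found among the 58395 genes of the count table and were among the 23806 genes tested. RNA was sequenced from MDA-MB-231 cells, an invasive human breast adenocarcinoma line. The siCRP2 cells (3 libraries, written siCSRP2 in the sample titles) had been transfected with the siRNA siCRP2#a against CSRP2, the gene of the actin-bundling protein CRP2, and the siCTR cells (3 libraries) with a non-targeting siRNA. Cells were harvested 65 hours after transfection per the sample descriptions. All 6 libraries came from this line alone, and a single siRNA stood for the knockdown, so an effect of CRP2 loss and an effect of that siRNA on other transcripts cannot be told apart.

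In macroautophagy, a ULK kinase complex starts the process, a class III PI3-kinase complex then marks the site of membrane formation with a phospholipid, and WIPI, ATG2 and ATG9 proteins enlarge the membrane sheet called the phagophore. A pair of ubiquitin-like conjugation systems attaches ATG8 proteins (LC3 and GABARAP) to that membrane, where cargo receptors such as p62 bind them. The closed autophagosome fuses with the lysosome, whose hydrolases work at the low pH set by the V-ATPase proton pump, and transcription factors of the MiT/TFE family drive many of the lysosomal genes.

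Total counts ran from 17336798 to 39115778 per library, so that 3 counts were worth 0.0767 to 0.173 counts per 1000000 before scaling. Every one of the 54 genes averaged at least 5 CPM (counts per 1000000 counts of the scaled library). CSRP2 itself was at 2.17, 1.78 and 1.89 CPM in siCRP2 libraries and at 13.7, 11.7 and 11.4 CPM in siCTR libraries (log2 fold change -2.66, adjusted p = 2.4e-08). Of the markers of the line and of other cells, the keratin KRT8 stood at 990 to 1023 CPM in siCRP2 and 923 to 1171 CPM in siCTR libraries, vimentin (VIM) at 1357 to 1937 CPM in siCRP2 and 1430 to 2262 CPM in siCTR libraries, and the hormone receptor PGR had 0 counts in every library. The cadherins CDH1 (0.94, adjusted p = 0.00065), an epithelial marker, and CDH2 (1.31, adjusted p = 0.0027), a mesenchymal one, were both higher in siCRP2 cells. CDH2 was scarce, with 11 to 98 counts per library. The other epithelial markers, KRT8 (-0.03), KRT18 (-0.04), KRT19 (-0.20) and EPCAM (-0.36), had negative log2 changes that did not pass. So did the mesenchymal markers VIM (-0.13) and FN1 (-0.66). Of the leukocyte markers, CD3E had at most 1 count and PTPRC at most 16 in any library, while CD14 was at 9.09 to 10.4 CPM in siCRP2 and 29.7 to 38.9 CPM in siCTR libraries (log2 fold change -1.82, adjusted p = 5.4e-08). In bulk RNA, fewer cells of a kind and less RNA per cell cannot be told apart, and the part of CD14 in the results was not tested. The column names of the count table carry the codes 0412, 0611 and 1311 once in each group, and libraries of the same code deviated together from their group means (correlation 0.459 to 0.744 over 10828 genes, against at most 0.114 for different codes). Values below are given in the order 0412, 0611, 1311 for each group.

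Autophagy and lysosome genes moved in both directions. At an adjusted p under 0.05, 10 of the 54 (18.5%) were higher in siCRP2 cells, against 12.5% of all genes tested, and 8 (14.8%) were lower, against 11.5%. With a change of at least 1.5-fold in addition, 2 were higher (3.7%, against 4.58% of all genes), ULK2 and RRAGD, and 5 were lower (9.26%, against 7.8%), TP53INP2, LAMP1, ATG9A, ATG16L1 and GABARAPL1. The 3 siCRP2 libraries lay wholly above the 3 siCTR libraries for 15 of the genes (27.8%, against 19.4%) and wholly below them for 13 (24.1%, against 18%). The median log2 change was 0.04, with a range of -2.22 to 1.49, beside a median of -0.02 over all genes tested. Since no member was scarce, the 10446 protein-coding genes that averaged 5 CPM or more are a closer reference. There 25.9% were higher and 18% were lower. The shares among the autophagy and lysosome genes in the fit without a block were below both. With a change of at least 1.5-fold in addition, 7.91% of this reference were higher and 9.83% lower. Its siCRP2 libraries lay wholly above the siCTR libraries for 35.1% and wholly below them for 23.1%. Its median log2 change was 0.08, above the 0.04 of the 54 genes. With the library code fitted as a replicate block, 15 of the 54 were higher and 12 lower. The p-values of that block fit, here and below, rest on the trended spread alone and not on each gene's own spread. They are therefore not comparable with those of the fit without a block. Leaving out siCRP2 library 1311 left 5 of the 54 genes higher, and leaving out siCRP2 library 0611 left 5 lower. No share over all genes is at hand for these alternative fits. Their counts, here and below, therefore have no reference, and the shares above do not serve as one.

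**Figure D1:**
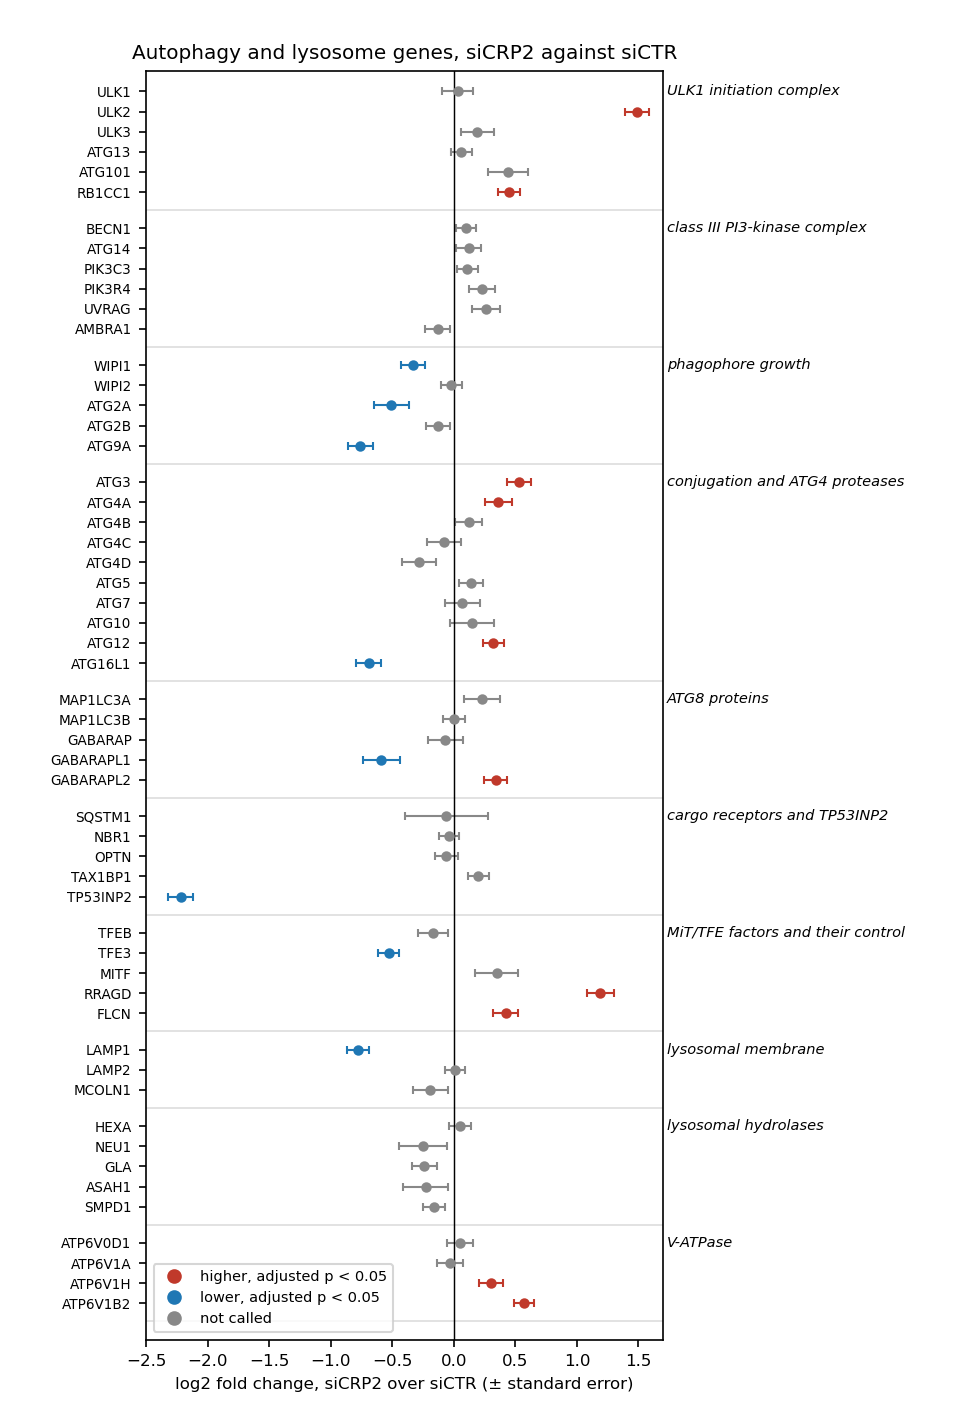
Log2 fold change of each of the 54 genes, siCRP2 over siCTR, ± its standard error from the edgeR fit, grouped by role. Red marks the 10 genes higher and blue the 8 genes lower in siCRP2 cells at an adjusted p under 0.05. TP53INP2 at -2.22 and ULK2 at 1.49 are the extremes.

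The autophagy steps and the lysosomal genes both held genes called in each direction. Of the 37 autophagy-step genes, 6 were higher (16.2%) and 6 were lower (16.2%), with a median log2 change of 0.07. Of the 12 lysosomal genes, 2 were higher (16.7%) and 1 was lower (8.33%), with a median of -0.10. The difference between the medians was not tested. Among protein-coding genes of at least 5 CPM, 25.9% were higher and 18% were lower, with a median of 0.08. When the library code was fitted as a replicate block, 10 autophagy-step genes were higher and 7 lower, and 2 lysosomal genes were higher and 4 lower. Without siCRP2 library 1311, 3 autophagy-step genes were higher, and without siCRP2 library 0611, 3 were lower. For the lysosomal genes, 1 was higher without siCRP2 0611, siCRP2 1311, siCTR 0412 or siCTR 0611, and 3 were lower without siCTR 0412.

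In the ULK1 initiation complex, ULK2 and RB1CC1 rose (33.3%) and none of the 6 genes fell. Of protein-coding genes of at least 5 CPM, 25.9% rose and 18% fell. ULK2 (ENSG00000083290, chr17:19770829-19867936, minus strand, GRCh38), a kinase that shares its role with ULK1, was at 62.7, 64.6 and 68.8 CPM in siCRP2 cells, against 23.5, 23.8 and 22.7 CPM in siCTR cells. The groups lay far apart and each was tight: the increase was 2.8-fold (log2 fold change 1.49, SE 0.0964, adjusted p = 1.9e-08). RB1CC1, the scaffold also known as FIP200, was at 137, 141 and 140 CPM in siCRP2 cells and 96.3, 114 and 95.3 CPM in siCTR cells (0.45, SE 0.0893, adjusted p = 0.0013). ULK1, the kinase that names the complex, had overlapping values of 43.3, 31.4 and 34.2 CPM in siCRP2 cells and 40.3, 31.7 and 34.5 CPM in siCTR cells (0.03, adjusted p = 0.9). ATG101, a small subunit that binds ATG13, was at 29.8, 40.3 and 43.6 CPM in siCRP2 cells and 23.5, 27.1 and 33.7 CPM in siCTR cells. Its siCRP2 value was the higher in each code, but the codes themselves spread so widely that the groups overlapped (0.44, SE 0.162, adjusted p = 0.077, or 1.3e-06 with the replicate block). ATG101 also passed with no filter on low counts (adjusted p = 0.0031), without siCRP2 0412 (0.011) and without siCTR 1311 (0.0091). ATG13 (0.06) and the related kinase ULK3 (0.19) did not pass.

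Expressed per kilobase of the main transcript, so that genes can be added, the 6 initiation genes summed to 91.9 ± 5.55 CPM per kb in siCRP2 cells and 72.8 ± 4.03 CPM per kb in siCTR cells (SD, n = 3 each). The lowest siCRP2 library, at 86.0, was above the highest siCTR library, at 76.9. Within the kinase family the make-up differed: ULK2 took 33.5 ± 3.5% of the summed ULK1, ULK2 and ULK3 level per kb in siCRP2 cells and 16.3 ± 1.65% in siCTR cells, whereas ULK1 took 31.8 ± 3.16% in siCRP2 cells and 42.3 ± 1.84% in siCTR cells. In siCRP2 cells the 3 kinases were therefore at nearly equal levels per kb, and in siCTR cells ULK2 was the least abundant.

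None of the 6 genes around the class III PI3-kinase passed the test, and their log2 changes stayed between -0.13 and 0.26, with a median of 0.11. Beside this, 25.9% rose and 18% fell among protein-coding genes of at least 5 CPM. The 6 genes comprise the lipid kinase PIK3C3 (VPS34) at 0.11, its partner PIK3R4 (VPS15) at 0.23, the shared subunit BECN1 at 0.10, the alternative subunits ATG14 at 0.12 and UVRAG at 0.26, and the Beclin 1 regulator AMBRA1 at -0.13. BECN1, the best known of them, was at 104, 108 and 112 CPM in siCRP2 cells and 99.8, 103 and 98.9 CPM in siCTR cells. The lowest siCRP2 library was only just above the highest siCTR library, and the log2 change did not pass (adjusted p = 0.41). With the replicate block, UVRAG (adjusted p = 0.0044, against 0.11 without it) and PIK3R4 (0.014, against 0.13) passed.

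Of the 5 genes of phagophore growth, 3 fell and none rose, beside 18% lower among protein-coding genes of at least 5 CPM, and the median log2 change was -0.33. ATG9A (ENSG00000198925, chr2:219219380-219229717, minus strand), the membrane-spanning protein carried by the vesicles that seed the phagophore, was at 36.5, 43.9 and 40.3 CPM in siCRP2 cells, against 67.6, 63.9 and 73.1 CPM in siCTR cells. Every siCRP2 library was well below every siCTR library, a 1.69-fold decrease (log2 fold change -0.76, SE 0.0991, adjusted p = 2.7e-05). A gene annotated on the same strand shares 38.8% of the exonic bases of ATG9A, so reads there may have been left uncounted in both groups. ATG2A, which carries lipids into the growing membrane, was at 52.7, 61.2 and 69.3 CPM in siCRP2 cells and 74.5, 80.8 and 106 CPM in siCTR cells (-0.51, SE 0.142, adjusted p = 0.025). The groups did not overlap, although the nearest libraries differed by little, and the call was lost without siCRP2 0412 (adjusted p = 0.079) or siCRP2 0611 (0.09). WIPI1, a reader of the phospholipid mark, averaged 41.3 ± 1.77 CPM in siCRP2 cells and 51.8 ± 4.46 CPM in siCTR cells (-0.33, adjusted p = 0.021). That call was lost without siCRP2 0412 (0.066), siCRP2 0611 (0.066), siCTR 0611 (0.081) or siCTR 1311 (0.074), and WIPI1 shares 24.4% of its exonic bases with ARSG on the opposite strand. The paralogues WIPI2 (-0.02) and ATG2B (-0.13) did not pass. Summed per kb, the 5 genes stood at 66.4 ± 4.39 CPM per kb in siCRP2 cells and 84.2 ± 6.63 CPM per kb in siCTR cells, with no overlap.

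Among the 10 conjugation genes and ATG4 proteases, 3 rose (30%) and 1 fell (10%). Beside these, 25.9% rose and 18% fell among protein-coding genes of at least 5 CPM. ATG3, the E2-like enzyme that transfers ATG8 proteins to lipid, was at 64.5, 60.0 and 60.8 CPM in siCRP2 cells and 45.4, 43.6 and 39.5 CPM in siCTR cells (0.53, SE 0.094, adjusted p = 0.00049). ATG12, the ubiquitin-like partner of ATG5, was at 73.8, 69.8 and 73.2 CPM in siCRP2 cells and 58.6, 58.2 and 57.1 CPM in siCTR cells (0.32, SE 0.0844, adjusted p = 0.01). Both groups were tight for these genes and stood clear of each other, although ATG12 no longer passed without siCRP2 1311 (adjusted p = 0.08). ATG16L1 (ENSG00000085978, chr2:233210051-233295674, plus strand), which brings the ATG12-ATG5 conjugate to the membrane, went the other way, with 24.0, 27.7 and 26.4 CPM in siCRP2 cells, against 42.6, 41.9 and 41.8 CPM in siCTR cells. This was a 1.62-fold decrease (log2 fold change -0.69, SE 0.102, adjusted p = 9.3e-05). Hence the 3 genes whose proteins form a single complex did not move as a unit: ATG12 rose, ATG16L1 fell, and ATG5 had a log2 change of 0.14 (adjusted p = 0.32). The E1-like enzyme ATG7 was at 32.4, 41.9 and 44.4 CPM in siCRP2 cells and 30.6, 39.0 and 43.5 CPM in siCTR cells, with a wider spread between codes than between groups (0.07, adjusted p = 0.77). ATG10, the E2-like enzyme for ATG12, was the least expressed of the 54 genes per kb (1.93 ± 0.206 CPM per kb in siCRP2 cells and 1.72 ± 0.215 CPM per kb in siCTR cells) and did not pass (0.15).

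Of the ATG4 proteases, which trim ATG8 proteins and release them from membranes, ATG4A was the only one called. It averaged 29.5 ± 1.01 CPM in siCRP2 cells and 23.0 ± 1.84 CPM in siCTR cells (0.36, adjusted p = 0.022), and the adjusted p was 0.052 to 0.14 without siCRP2 0412, siCRP2 0611, siCRP2 1311, siCTR 0412 or siCTR 0611. ATG4B (0.12), ATG4C (-0.08) and ATG4D (-0.28) did not pass, but ATG4D did with the replicate block (adjusted p = 0.0041, against 0.17). ATG4A made up 30.1 ± 0.747% of the family's level per kb in siCRP2 cells and 24.2 ± 1.3% in siCTR cells, and ATG4D 25.5 ± 2.62% in siCRP2 cells and 32.0 ± 2.79% in siCTR cells.

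GABARAPL2 rose and GABARAPL1 fell (20% each of the 5 ATG8 genes, beside 25.9% and 18% of protein-coding genes of at least 5 CPM). The summed level of the 5 ATG8 genes overlapped between the groups. Together they stood at 161 ± 9.03 CPM per kb in siCRP2 cells and 157 ± 14.2 CPM per kb in siCTR cells. GABARAPL1 (ENSG00000139112, chr12:10212458-10223128, plus strand) was at 33.5, 40.0 and 47.0 CPM in siCRP2 cells, against 48.6, 64.2 and 68.8 CPM in siCTR cells. Code 0412 was the lowest in both groups, and the highest siCRP2 library came close to the lowest siCTR library (1.5-fold lower, log2 fold change -0.59, SE 0.151, adjusted p = 0.016). The call was lost without siCRP2 0611 (adjusted p = 0.068) or siCTR 0611 (0.069). GABARAPL2, also called GATE-16, was at 59.5, 66.8 and 61.2 CPM in siCRP2 cells and 45.9, 53.9 and 48.5 CPM in siCTR cells (0.34, SE 0.0959, adjusted p = 0.015). Its groups were apart as well, yet the adjusted p was 0.14 without siCRP2 0611 and 0.067 without siCRP2 1311. MAP1LC3B, the LC3 most often used to count autophagosomes, was at 112, 124 and 125 CPM in siCRP2 cells and 109, 123 and 129 CPM in siCTR cells (0.00, SE 0.0895, adjusted p = 0.99). MAP1LC3B has a near-identical copy, MAP1LC3B2, so reads that match both may have been left uncounted. MAP1LC3A (0.23) and GABARAP (-0.07) did not pass, and GABARAP shares 35.4% of its exonic bases with a same-strand readthrough gene. As shares of the family per kb, GABARAPL2 took 39.8 ± 1.5% in siCRP2 cells and 32.3 ± 1.89% in siCTR cells, and GABARAPL1 took 13.2 ± 1.74% in siCRP2 cells and 20.3 ± 1.92% in siCTR cells. The MAP1LC3B share was 34.7 ± 0.533% in siCRP2 cells and 35.6 ± 1.05% in siCTR cells.

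**Figure D2:**
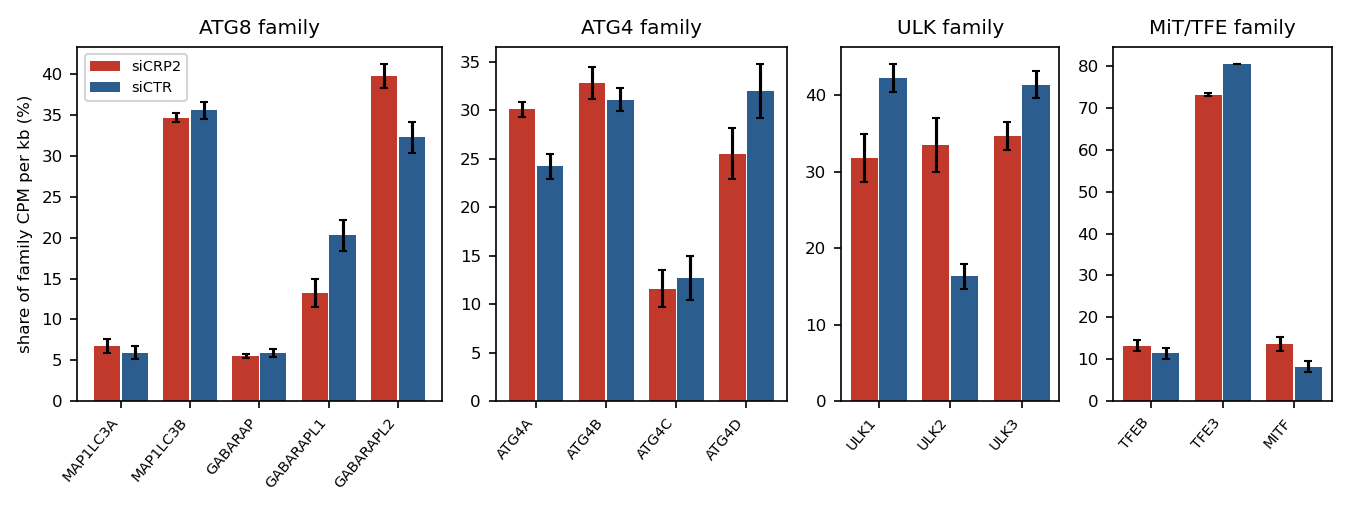
Share of each paralogue in its family's summed level (CPM per kb of transcript), in percent, for siCRP2 (red) and siCTR (blue) libraries. Bars are means and whiskers SD of 3 libraries. ULK2 has a share of 33.5% in siCRP2 and 16.3% in siCTR cells, and GABARAPL2 of 39.8% in siCRP2 and 32.3% in siCTR cells. TFE3 is lower in siCRP2 cells, at 73.2% against 80.5% in siCTR cells.

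None of the cargo receptors, which include the most abundant of these transcripts, passed the test without a block, and TP53INP2 fell more than any other gene of the 54. The shares among protein-coding genes of at least 5 CPM were 25.9% higher and 18% lower. TP53INP2 (ENSG00000078804, chr20:34704339-34713439, plus strand), a protein that binds ATG8 proteins and shuttles between nucleus and autophagosome, was at 15.6, 18.2 and 17.2 CPM in siCRP2 cells, against 83.6, 79.0 and 74.9 CPM in siCTR cells. The decrease was 4.66-fold (log2 fold change -2.22, SE 0.102, adjusted p = 1.4e-09), and the distance between the groups was many times the spread within either. SQSTM1 (p62), the receptor that links ubiquitin to LC3, had the highest level of the set, 252 ± 42.9 CPM per kb in siCRP2 cells and 263 ± 98.3 CPM per kb in siCTR cells. Its libraries were at 582, 740 and 821 CPM in siCRP2 cells and 465, 752 and 1023 CPM in siCTR cells, so the spread within each group exceeded the difference between them (-0.06, SE 0.338, adjusted p = 0.92). Within codes the log2 ratio was 0.33 in 0412, -0.02 in 0611 and -0.32 in 1311. SQSTM1 shares 21% of its exonic bases with MRNIP on the opposite strand. The receptors NBR1 (-0.04) and OPTN (-0.06) overlapped between the groups. TAX1BP1, at 410 ± 16.0 CPM in siCRP2 cells and 357 ± 25.1 CPM in siCTR cells, did not overlap but passed only with the replicate block (0.20, adjusted p = 0.0046, against 0.11 without it).

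**Figure D3:**
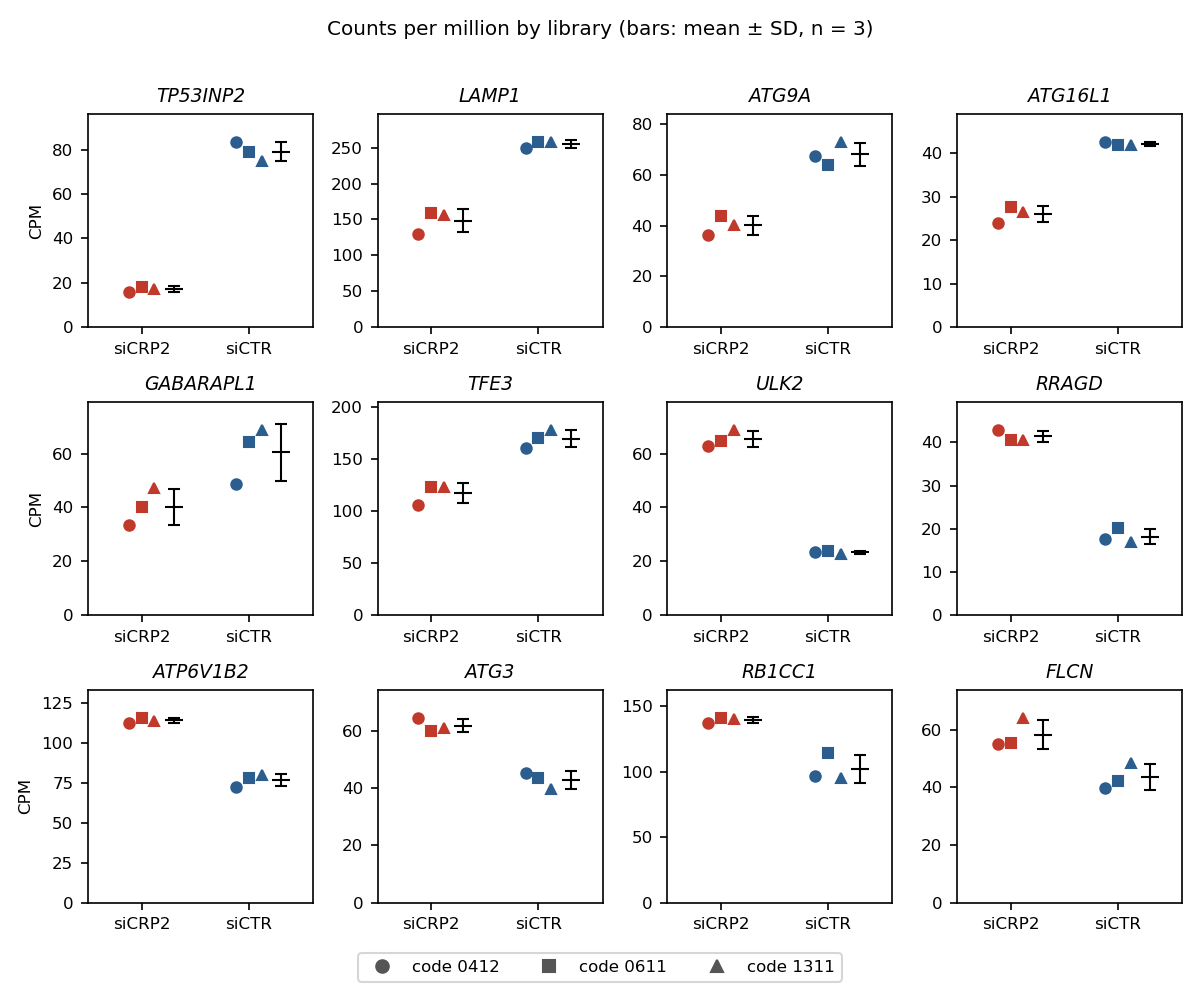
Expression in CPM of 12 genes in each library, siCRP2 on the left and siCTR on the right of each panel. Marker shapes give the library code and the bars the mean ± SD of 3 libraries. No panel has overlapping groups: TP53INP2 lies between 15.6 and 18.2 CPM in siCRP2 cells and between 74.9 and 83.6 CPM in siCTR cells.

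Among the MiT/TFE factors and their regulators, 2 of 5 genes rose (40%) and 1 fell (20%). The shares among protein-coding genes of at least 5 CPM were 25.9% and 18%. TFE3, the most abundant of the 3 factors here, was at 106, 123 and 123 CPM in siCRP2 cells and 161, 170 and 178 CPM in siCTR cells (-0.53, SE 0.0871, adjusted p = 0.00024). TFEB, often called the master regulator of lysosomal genes, was at 15.1, 15.4 and 14.5 CPM in siCRP2 cells and 18.0, 16.7 and 15.9 CPM in siCTR cells (-0.17, adjusted p = 0.34). MITF, the member best known from melanocytes, was at 25.4, 33.2 and 37.4 CPM in siCRP2 cells and 19.7, 25.9 and 30.0 CPM in siCTR cells. Its difference was even across codes, at log2 ratios of 0.36, 0.36 and 0.32, but did not pass in the fit without a block (adjusted p = 0.19). The adjusted p was 0.00021 with the replicate block, 0.033 with no filter on low counts, 0.049 without siCRP2 0412 and 0.048 without siCTR 1311. TFE3 supplied 73.2 ± 0.338% of the 3 factors' level per kb in siCRP2 cells and 80.5 ± 0.0697% in siCTR cells, and MITF supplied 13.6 ± 1.58% in siCRP2 cells and 8.16 ± 1.28% in siCTR cells.

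Both regulators at the lysosomal surface rose. RRAGD (ENSG00000025039, chr6:89364616-89412273, minus strand), a Rag GTPase that brings mTORC1 and MiT/TFE factors to the lysosome, was at 42.9, 40.6 and 40.6 CPM in siCRP2 cells, against 17.5, 20.1 and 16.8 CPM in siCTR cells. This was a 2.28-fold increase with no overlap (log2 fold change 1.19, SE 0.11, adjusted p = 7.8e-07). FLCN (folliculin), which activates RRAGC and RRAGD, was at 55.1, 55.5 and 64.1 CPM in siCRP2 cells and 39.9, 42.2 and 48.5 CPM in siCTR cells (0.42, SE 0.104, adjusted p = 0.0062, and 0.085 without siCRP2 1311).

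An earlier search of these same data had picked the heptamer GCCTCAC for its relation to the fold changes, so its counts are a description and not independent evidence. In the main transcript of each tested protein-coding gene, read on the sense strand, it was present in 46.5% of the genes called lower, 11.9% of those called higher and 23.9% of all. Among the 54 genes, 13 held it (24.1%): 3 of the 8 called lower (37.5%), 1 of the 10 called higher (10%), and 9 of the 36 not called (25%). The holders among the called genes were TP53INP2, ATG2A and TFE3, which fell, and ATP6V1B2, which rose. LAMP1, ATG9A, ATG16L1, GABARAPL1 and WIPI1, which fell, did not hold it. The part of this heptamer in the changes was not tested. The sites of the 3 genes that fell are given below in transcript orientation, 29 bases each with the heptamer in capitals. TP53INP2 holds it in the 3′ UTR, in exon 5 of 5 (chr20:34711906-34711912, plus strand), ATG2A in coding sequence of exon 9 of 41 (chr11:64911955-64911961, minus strand), and TFE3 at 2 places of the 3′ UTR in exon 10 of 10 (chrX:49030147-49030153 and chrX:49029875-49029881, minus strand).
TP53INP2: taggtttccagGCCTCACagccaagctga
ATG2A: ctccatggctgGCCTCACaagcagtgtgg
TFE3, first site: gtcctgatcagGCCTCACccctcccctgg
TFE3, second site: tggggatcacaGCCTCACccctgcccctg

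Of the 3 lysosomal membrane genes, LAMP1 fell (33.3%) and the other genes gave no call. Among protein-coding genes of at least 5 CPM, 18% fell and 25.9% rose. LAMP1 (ENSG00000185896, chr13:113297239-113323672, plus strand), a heavily glycosylated protein lining the lysosome, was at 130, 159 and 156 CPM in siCRP2 cells, against 249, 258 and 258 CPM in siCTR cells. The siCTR libraries were close together and the siCRP2 libraries all far below them, a 1.72-fold decrease (log2 fold change -0.78, SE 0.0908, adjusted p = 8.8e-06). Its partner LAMP2 was at 427, 453 and 432 CPM in siCRP2 cells and 422, 458 and 420 CPM in siCTR cells (0.01, SE 0.0834, adjusted p = 0.92). The calcium channel gene MCOLN1 overlapped between the groups (-0.19, adjusted p = 0.37). Per kb, LAMP1 was therefore below LAMP2 in siCRP2 cells, with 54.9 ± 5.95 CPM per kb for LAMP1 and 66.9 ± 2.1 CPM per kb for LAMP2. In siCTR cells it was above, with 94.4 ± 1.96 CPM per kb for LAMP1 and 66.3 ± 3.34 CPM per kb for LAMP2.

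MiT/TFE factors bind E-box motifs with the core CACGTG, so promoters were searched for these letters, which read the same on both strands. RefSeq windows (GRCh38.p14, 250 bases before to 50 after the gene start) were at hand for 43 of the 54 genes. Of the 33 autophagy-step genes with a window, 3 held the core (9.09%), against 1279 of 13418 windows of tested genes (9.53%), and 2 held it as TCACGTG on either strand (6.06%, against 5.45%). Only 6 of the 12 lysosomal genes had a window, and 4 of these 6 held the core (66.7%), each also as TCACGTG. The other lysosomal genes had no window, so no share can be given for all 12, or for all 54 together. NEU1, ATP6V0D1, ATG14 and ULK3 held the core once and MCOLN1 had 2 copies, at -41 and -14 bases from the start, and none of these was called in the fit without a block. The 2 called genes with the core moved in opposite directions, and their windows are shown for that reason with each CACGTG in capitals. LAMP1, which fell, has 6 (first bases at -192, -176, -159, -142, -28 and -1), in chr13:113296989-113297288 on the plus strand. ATG3, which rose, has 2 (first bases at -18 and 6), in chr3:112561913-112562212 on the minus strand.
LAMP1: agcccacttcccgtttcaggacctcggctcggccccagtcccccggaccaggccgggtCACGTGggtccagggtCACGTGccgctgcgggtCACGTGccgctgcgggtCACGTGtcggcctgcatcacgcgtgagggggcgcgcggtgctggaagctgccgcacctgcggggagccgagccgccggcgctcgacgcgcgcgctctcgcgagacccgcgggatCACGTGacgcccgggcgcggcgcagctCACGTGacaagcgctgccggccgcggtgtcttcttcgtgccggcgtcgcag
ATG3: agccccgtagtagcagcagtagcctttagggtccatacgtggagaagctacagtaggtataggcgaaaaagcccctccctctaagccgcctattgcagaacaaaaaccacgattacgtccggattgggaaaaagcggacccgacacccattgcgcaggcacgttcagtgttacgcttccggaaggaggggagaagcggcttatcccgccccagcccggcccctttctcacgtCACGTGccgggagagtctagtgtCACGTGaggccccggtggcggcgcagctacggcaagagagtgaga
A match of letters is a description and not a bound site.

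The 5 lysosomal hydrolases gave no call in the fit without a block. Of protein-coding genes of at least 5 CPM, 25.9% were higher and 18% lower in that fit. NEU1, a sialidase, was at 127, 163 and 165 CPM in siCRP2 cells and 135, 188 and 217 CPM in siCTR cells (-0.25, SE 0.194, adjusted p = 0.44). The siCRP2 library was the lower in each code, at log2 ratios of -0.09, -0.20 and -0.40, while the groups overlapped. ASAH1 (acid ceramidase), at 80.5, 108 and 114 CPM in siCRP2 cells and 92.0, 129 and 133 CPM in siCTR cells, had the same form (-0.23, adjusted p = 0.44). GLA (alpha-galactosidase A) averaged 43.2 ± 4.37 CPM in siCRP2 cells and 51.2 ± 3.54 CPM in siCTR cells without overlap (-0.24, adjusted p = 0.1). With the replicate block the adjusted p was 0.00086 for NEU1, 0.0019 for ASAH1 and 0.0035 for GLA, and without siCTR 0412 it was 0.011 for NEU1 and 0.04 for ASAH1. NEU1 also passed with no filter on low counts (0.043) and GLA with the stricter filterByExpr (0.048). SMPD1, the acid sphingomyelinase (-0.16, adjusted p = 0.21), and HEXA, a subunit of beta-hexosaminidase (0.05, adjusted p = 0.75), passed in neither fit.

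Of the 4 V-ATPase genes, the cytosolic-sector subunits ATP6V1B2 and ATP6V1H rose (50%), beside 25.9% of protein-coding genes of at least 5 CPM. ATP6V1B2 was at 113, 116 and 114 CPM in siCRP2 cells and 72.5, 78.3 and 80.2 CPM in siCTR cells (0.57, SE 0.0829, adjusted p = 7.8e-05), with both groups tight. ATP6V1H was at 63.3, 70.2 and 74.9 CPM in siCRP2 cells and 53.0, 55.0 and 61.7 CPM in siCTR cells (0.30, SE 0.0964, adjusted p = 0.032). That call was near the threshold and was lost without siCRP2 0611 (0.17), siCRP2 1311 (0.25), siCTR 0412 (0.084) or siCTR 0611 (0.12). The ATP6V1H call was also lost with DESeq2 (0.052), with edgeR's exact test (0.057) and with filterByExpr (0.068). The catalytic subunit gene ATP6V1A (-0.03) and the membrane-sector gene ATP6V0D1 (0.05) overlapped between the groups.

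Some of these genes varied more with the library code than with the siRNA, including genes that hardly changed with either. For 20 of the 54 genes (37%), 1311 differed from 0412 in the same direction in both groups, by more than the groups differed. This held for 2036 of the 10446 protein-coding genes of at least 5 CPM (19.5%). None of the 20 was called in the fit without a block. A small group difference makes the rule easy to meet, so the share does not measure how strongly the codes differ. NBR1 (-0.04) met it with log2 ratios of 1311 over 0412 of 0.06 in siCRP2 and 0.04 in siCTR cells. SQSTM1 had the widest difference between these codes, with log2 ratios of 1311 over 0412 of 0.50 in siCRP2 cells and 1.14 in siCTR cells. NEU1 had ratios of 0.38 in siCRP2 and 0.69 in siCTR cells, and ATG101 of 0.55 in siCRP2 and 0.52 in siCTR cells. MITF had ratios of 0.56 in siCRP2 and 0.60 in siCTR cells, with ASAH1 and ATG7 between 0.46 and 0.53 in both groups. The sources do not say what the codes stand for, and these shared differences widen the spread that the fit without a block sees.

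**Figure D4:**
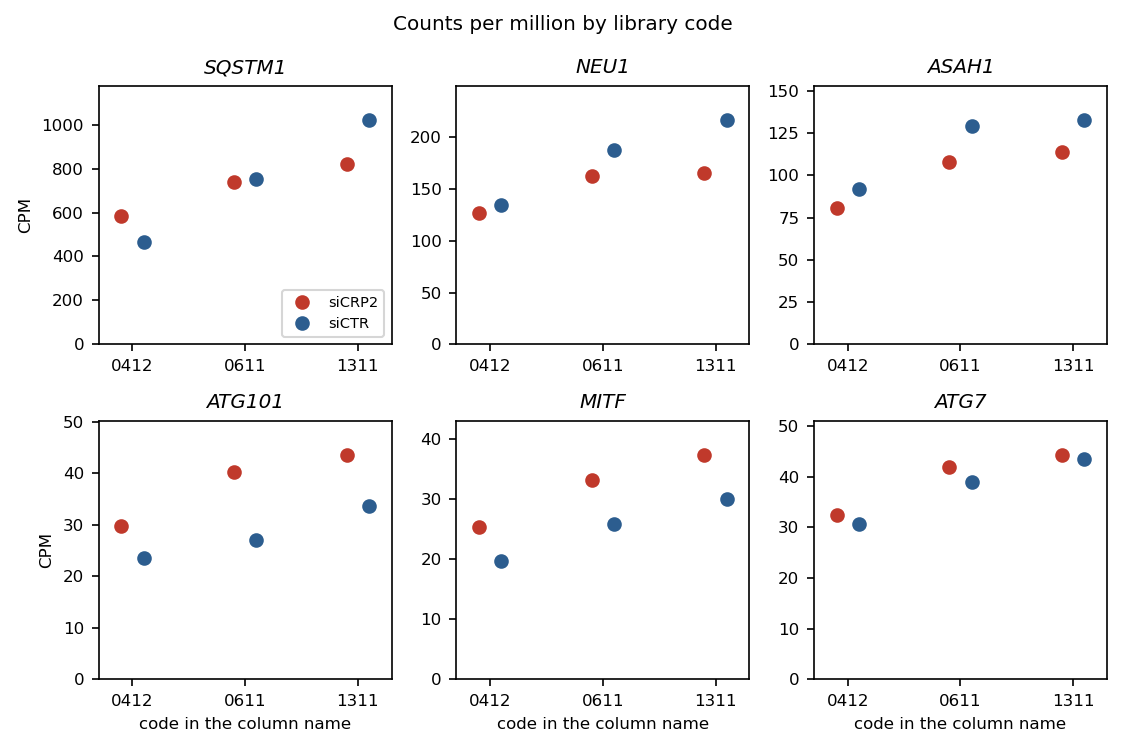
Expression in CPM of 6 genes by the code in the column name, with siCRP2 (red) left of siCTR (blue) at each code. Each point is 1 library. SQSTM1 lies at 582 CPM in siCRP2 and 465 CPM in siCTR cells in code 0412, and at 821 CPM in siCRP2 and 1023 CPM in siCTR cells in code 1311, while MITF is higher in siCRP2 cells within each code.

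Lists of other genes from the same pathways gave the following counts. These lists were not filtered by level, so they can hold genes below the 5 CPM of the protein-coding reference, such as ATG9B. Among all genes tested, 12.5% were higher and 11.5% lower. Of 33 further lysosomal enzymes, 14 fell (42.4%) and 1 rose (3.03%), with a median log2 change of -0.26, beside 18% lower and 25.9% higher among protein-coding genes of at least 5 CPM and a median there of 0.08. ACP2, a lysosomal acid phosphatase, averaged 9.19 ± 1.83 CPM in siCRP2 cells and 38.9 ± 1.93 CPM in siCTR cells (-2.08, adjusted p = 2.2e-08). ARSB, arylsulfatase B, averaged 4.56 ± 0.858 CPM in siCRP2 cells and 24.4 ± 2.83 CPM in siCTR cells (-2.40, adjusted p = 2.2e-08). GLB1, the lysosomal beta-galactosidase, averaged 52.8 ± 8.34 CPM in siCRP2 cells and 140 ± 6.46 CPM in siCTR cells (-1.41, adjusted p = 8.3e-08). IDS, an iduronate sulfatase, averaged 81.7 ± 8.63 CPM in siCRP2 cells and 173 ± 20.6 CPM in siCTR cells (-1.08, adjusted p = 1.3e-06). The cathepsins CTSZ (-0.94) and CTSC (-0.36) were among those that fell, and the 1 that rose was PPT1, a palmitoyl-protein thioesterase (0.23, adjusted p = 0.048). The heptamer GCCTCAC was held by 7 of the 14 enzymes that fell and by 1 of the 18 not called, and not by PPT1. Of all tested protein-coding genes 23.9% held it, and 46.5% of those called lower. It was picked from these same data, and its part in these changes was not tested.

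In the other lysosomal lists and the fusion list more genes were called higher than lower, as they were among the protein-coding genes of at least 5 CPM (25.9% higher and 18% lower). Of 19 further lysosomal membrane proteins 7 rose (36.8%) and 2 fell (10.5%), led by the amino acid transporter SLC36A1 (58.6 ± 3.68 CPM in siCRP2 cells and 24.7 ± 2.59 CPM in siCTR cells, 1.25, adjusted p = 3.4e-07) and the arginine sensor SLC38A9 (0.79, adjusted p = 4.3e-05). The cystine exporter CTNS (-1.94, adjusted p = 7.6e-05) and the cation channel TPCN1 (-0.73, adjusted p = 0.00057) fell. Of 15 further V-ATPase subunits 4 rose (26.7%), ATP6V1D (0.57), ATP6V1F (0.55), ATP6V1G1 (0.46) and ATP6V1E1 (0.31), and 1 fell, ATP6V0E2, with 4.23 ± 1.12 CPM in siCRP2 cells and 27.6 ± 1.85 CPM in siCTR cells (-2.70, adjusted p = 1.1e-08). With the replicate block, 5 of these subunits were higher and 4 lower. Of 18 genes of autophagosome-lysosome fusion 5 rose (27.8%) and none fell: the SNARE genes STX17 (0.56, adjusted p = 0.00055), STX7 (0.42, 0.0025) and SNAP29 (0.33, 0.017), the tether EPG5 (0.95, 0.0075) and RUBCN, an inhibitor of fusion (0.62, 0.00085). With the replicate block, 10 of these fusion genes were higher and 2 lower. For neither block count is a share over all genes at hand.

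Of 35 genes of mTORC1, Rag and AMPK control, 10 rose (28.6%) and 6 fell (17.1%), with a median of 0.11, close to the 25.9% higher and 18% lower of the protein-coding genes of at least 5 CPM. The AMPK gamma subunits moved in opposite directions, PRKAG2 with 134 ± 11.7 CPM in siCRP2 cells and 65.3 ± 2.67 CPM in siCTR cells (1.04, adjusted p = 3.5e-07) and PRKAG1 with 24.5 ± 2.69 CPM in siCRP2 cells and 53.7 ± 3.4 CPM in siCTR cells (-1.13, adjusted p = 1.2e-06). FNIP1, the partner of folliculin, rose (0.78, adjusted p = 7.8e-06), and LAMTOR1, which anchors the Rag GTPases, fell (-1.09, adjusted p = 1.2e-05). Among 13 further autophagy core genes 5 rose (38.5%) and 3 fell (23.1%), including the ATG8 gene MAP1LC3C at 4.29 ± 0.984 CPM in siCRP2 cells and 0.902 ± 0.358 CPM in siCTR cells (2.21, adjusted p = 3.2e-05), TBK1, a kinase of cargo receptors (0.45), the PI3-kinase subunit NRBF2 (0.46) and, among those that fell, the endoplasmic reticulum proteins EI24 (-1.15) and VMP1 (-0.23) and SMCR8 (-0.45). The other 2 that rose were WDR41 (0.57) and ATG9B, which was scarce, at 0.281 ± 0.126 CPM in siCRP2 cells and 0.0541 ± 0.0587 CPM in siCTR cells. Of 16 further cargo receptors 3 rose and 3 fell (18.8% each), with the xenophagy receptor CALCOCO2 (0.51), the ER-phagy receptor TEX264 (0.46) and the mitophagy receptor FUNDC1 (0.40) higher and the mitophagy receptors BCL2L13 (-0.68) and PHB2 (-0.40) and the adapter WDFY3 (-0.44) lower.

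**Figure D5:**
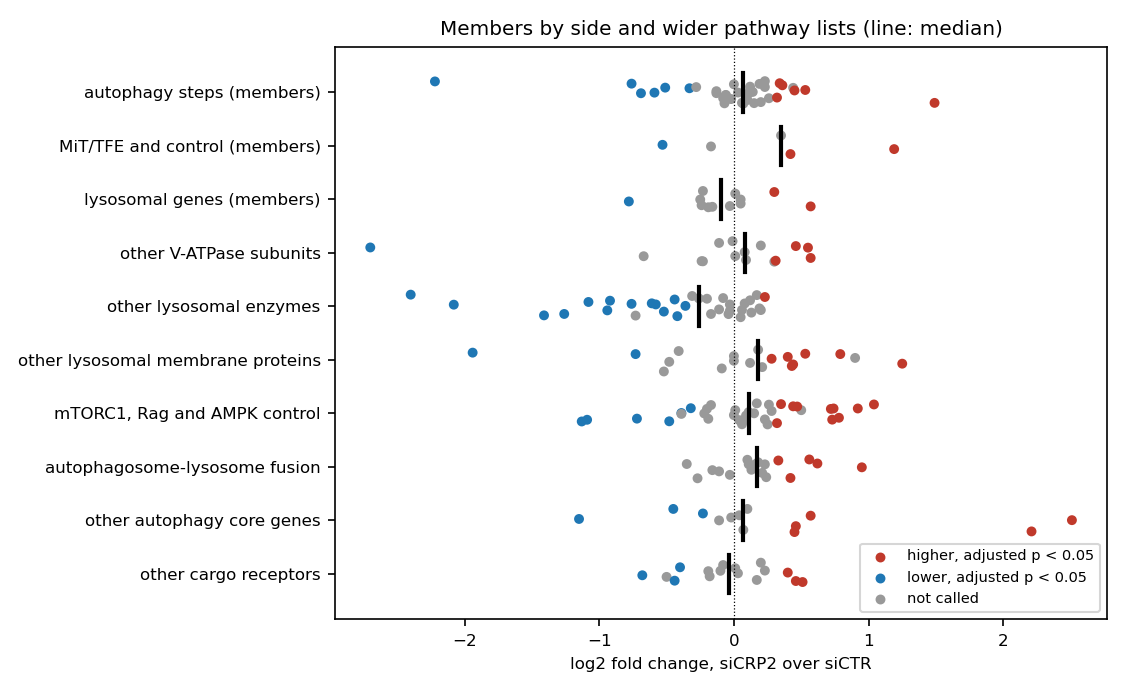
Log2 fold change, siCRP2 over siCTR, of the 54 genes split into autophagy steps, MiT/TFE factors with their control and lysosomal genes, and of 7 wider lists. Each point is a gene, the black line is the median of its row, and red and blue mark genes higher and lower at an adjusted p under 0.05. The row of other lysosomal enzymes has 14 lower and 1 higher, with a median of -0.26.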

How the data were processed

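The authors aligned the reads with STAR to GRCh38 and deposited its raw counts per gene for the 6 libraries. The STAR version, the annotation and the strand column taken are not stated in the labels or the paper read here. It is therefore not known how reads were counted where genes overlap on opposite strands. STAR leaves out reads that fall on more than 1 gene. The study calls its replicates biological, the labels do not say more, and the p-values reflect only how far these libraries differ. An unnamed column of 4 gene names was not used.

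Counts were fitted in R 4.3.3 with edgeR 4.0.16 (TMM scaling, robust quasi-likelihood test), after dropping genes not counted in 2 or more libraries of either group, with Benjamini-Hochberg adjustment over 23806 genes. CPM are scaled by TMM, and levels per kb use the GENCODE 44 main transcript. Symbols and coordinates are GENCODE on GRCh38; 57754 of 58395 rows matched. Column codes match no replicate number of the labels. Same-coded libraries correlated at 0.723, 0.459 and 0.744 in their deviations from group means, so the code served as a replicate block in an alternative fit, whose prior degrees of freedom were infinite and whose p-values therefore rest on the trended spread alone. The other alternatives were DESeq2 1.42.0, its size factors, edgeR's exact test, other filters and leaving out each library.

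The genes and lists were chosen with earlier results of these data known. All 54 genes were named; library values were given for changes of at least 1.5-fold, for high levels and where a comparison turned on them; wider lists gave up to 4 called genes of smallest p. The others named from these lists (CTSZ, CTSC, PPT1, ATP6V1E1, SNAP29, VMP1, SMCR8, WDR41, ATG9B, FUNDC1 and PHB2) were picked after their values were seen. The fit was tested on simulated data.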

Additional observations from a re-analysis of the deposited data

How the results depend on the processing

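Across 12 alternatives, no call among the 54 genes changed sign. Of the 18 called genes, 10 passed under every alternative (ULK2, RB1CC1, ATG9A, ATG3, ATG16L1, TP53INP2, TFE3, RRAGD, LAMP1 and ATP6V1B2) and 8 were lost under at least 1, while 9 others passed under at least 1. With the replicate block by code, 10 autophagy-step genes were higher and 4 lysosomal genes lower. Lysosomal genes higher numbered 1 under DESeq2, the exact test and filterByExpr, and lysosomal genes lower numbered 2 under filterByExpr and 2 with no filter beyond a count in any library. The autophagy-step median was 0.02 and the lysosomal median -0.14 under filterByExpr. Leaving out 1 library at a time gave 5 to 12 genes higher and 5 to 10 lower, 3 to 7 autophagy-step genes higher and 3 to 6 lower, and 1 to 2 lysosomal genes higher and 1 to 3 lower. The autophagy-step median then ran from 0.02 to 0.10 and the lysosomal median from -0.16 to -0.01. The causes were not tested. Total counts per library limit the precision for low genes such as ATG10 more than for abundant ones such as SQSTM1, whose spread was between codes. A planned comparison of ATG8 protein sequences was not run.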
